A study of Mus musculus with 4 samples.

Results

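The islet cell coupling and adhesion genes are 9 genes of mouse pancreatic islets, the clusters of hormone cells in the pancreas: Gjd2, Gja1, Gjb1, Cdh1, Cdh2, Ncam1, Efna5, Epha5 and Tjp1. They were chosen by symbol, and all 9 were found among the 55536 genes of the count table. RNA was measured by bulk sequencing of polyadenylated RNA from islets of male C57BL/6 mice aged 8 weeks, in 2 non-depleted libraries and 2 libraries in which insulin sequences were depleted during library preparation (Jumpcode DepleteX insulin panel). Below, N1 and N2 stand for non-depleted replicates 1 and 2, and D1 and D2 for insulin-depleted replicates 1 and 2. No other treatment and no genetic change is given for either group. The labels name the libraries of a group biological replicates without saying whether they came from separate animals, and the same 2 codes stand in all 4 column names, so a p-value here is against the spread of these libraries only. The column names of the non-depleted libraries carry a size-selection tag and those of the insulin-depleted libraries do not, so size selection and depletion cannot be told apart here.

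Islet cells are joined by gap junctions, channels built of connexins that let ions and small molecules pass from cell to cell, and in beta cells the connexin encoded by Gjd2 is known to link their electrical activity. Cadherins are calcium-dependent adhesion proteins that bind the same protein on the neighbouring cell and are tied to the actin skeleton through catenins. NCAM is an adhesion protein of the immunoglobulin type, ephrins and Eph receptors signal between touching cells, and the scaffold protein encoded by Tjp1 sits under tight junctions and binds connexins.

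Levels are given as CPM, a gene's counts scaled by the library's total outside Ins1 and Ins2 to the same sum in each library. Those totals were 48510880 and 58127371 in N1 and N2, and 19278430 and 64858544 in D1 and D2. The insulin genes took 4.14% and 3.97% of all counts without depletion and 0.195% and 0.264% with it. Islet hormone genes were abundant in all 4 libraries, with Iapp (amylin) at 17396 to 18761 CPM and Gcg (glucagon) at 11136 to 12812 CPM. They also held RNA of the surrounding digestive tissue: the summed level of 16 acinar-cell markers was 16838 CPM in N1, 7062 in N2, 16860.5 in D1 and 7098 in D2. In bulk RNA, fewer cells of a type and less RNA per cell cannot be told apart.

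The adhesion gene Cdh1 was the most abundant of the 9 genes per length, and the receptor gene Epha5 the least. Divided by the length of all annotated exons merged, Cdh1 (E-cadherin) had 109.9 ± 1.42 CPM per kb (SD over the 4 libraries). Gjd2 followed at 50.5 ± 4.71 and Tjp1 at 40.6 ± 1.10 CPM per kb. Cdh2 (N-cadherin) had 20.8 ± 2.87 CPM per kb. Efna5 with 16.4 ± 0.318 and Ncam1 with 16.3 ± 3.57 CPM per kb could not be ordered, since their ranges over the libraries overlapped. Gja1 had 8.56 ± 0.366, Gjb1 0.946 ± 0.483 and Epha5 0.114 ± 0.0430 CPM per kb. All other neighbours in this order of means had ranges over the 4 libraries that did not overlap. The range of Ncam1 (13.0 to 19.4) also overlapped that of Cdh2 (17.7 to 23.4), so these 2 could not be ordered either. Of the 19721 genes tested outside Ins1 and Ins2, these 9 included, Cdh1 lay above 98.6% on this scale, Gjd2 above 96.2% and Tjp1 above 94.97%. Epha5 lay above 6.61%.

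The order below Cdh2 depends on which length is used. Gja1 and Epha5 have merged exons of 10257 and 16739 bases but longest transcripts of 3889 and 7328 bases. The longest Gja1 transcript is annotated as noncoding, so its values by this length do not rest on a coding transcript. Per kb of the longest transcript Gja1 had a mean of 22.6 CPM, Ncam1 21.6 and Efna5 16.4. The ranges of Gja1 (21.6 to 23.6) and Ncam1 (17.2 to 25.7) over the libraries overlapped, so these 2 could not be ordered, and both lay above that of Efna5 (16.1 to 16.7). By mean level, the first 4 places (Cdh1, Gjd2, Tjp1, Cdh2) and the last places (Gjb1, Epha5) were the same by either length.

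**Figure D1:**
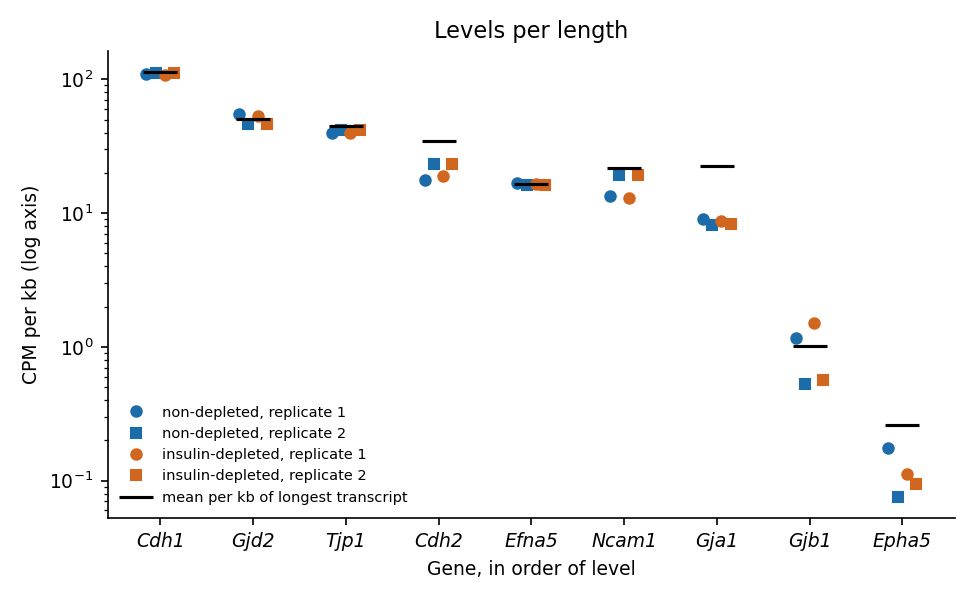
CPM per kb of merged exons (log axis) for each gene, in order of level. Points are single libraries (blue non-depleted, orange insulin-depleted, circles replicate 1, squares replicate 2) and black bars are means over the 4 libraries per kb of the longest transcript. Cdh1 leads at 109.9 CPM per kb, Ncam1 overlaps both Efna5 and Cdh2, and Gja1 moves up from 8.56 to 22.6 with the other length.

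Gjd2 encodes connexin 36, the gap junction protein of beta cells and many neurons. The gene (ENSMUSG00000068615) lies on chromosome 2 from 114009601 to 114013619 on the minus strand (GRCm38) and has 1 annotated transcript. Its level was 159.8 CPM in N1, 134 in N2, 154 in D1 and 133 in D2. Both libraries numbered 1 were above both libraries numbered 2, and the groups overlapped. The non-depleted libraries averaged 147 ± 18.2 CPM and the insulin-depleted ones 144 ± 14.6 CPM (SD, n = 2 each). The log2 fold change with depletion was -0.04 (SE 0.13, 95% interval -0.36 to 0.29), which did not pass the threshold (adjusted p = 1.00 by edgeR's quasi-likelihood test). Of its exonic bases, 1.98% overlap an antisense gene, A530058N18Rik, and the use of strand in counting is not given in the sources used here.

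Gja1 encodes connexin 43, the most widespread connexin of the body, found in fibroblasts, smooth muscle and endothelium among others. The gene (ENSMUSG00000050953, chromosome 10, 56377330 to 56402513, plus strand) stood at 91.9 CPM in N1, 83.9 in N2, 89.8 in D1 and 85.4 in D2. These 4 values lay within 0.13 on the log2 scale, and the groups overlapped. Its log2 fold change with depletion was -0.01 (95% interval -0.24 to 0.22, edgeR).

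Gjb1 encodes connexin 32, which joins cells of the liver, the exocrine pancreas and myelinating Schwann cells. The gene (ENSMUSG00000047797, chromosome X, 101376378 to 101385629, plus strand) rested on 97 counts in N1, 52 in N2, 50 in D1 and 63 in D2. These are 2.00 CPM (exact Poisson 95% interval 1.62 to 2.44) and 0.895 CPM (0.668 to 1.17) without depletion. With depletion they are 2.59 CPM (1.93 to 3.42) and 0.971 CPM (0.746 to 1.24). Both libraries numbered 1 were above both numbered 2, by 2.24 times in the non-depleted and 2.67 times in the insulin-depleted group. The intervals cover counting error only, and they are too narrow if both reads of a pair were counted: over the 4 libraries 80.01 to 84.01% of genes with 2 to 9 counts had an even count.

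Gjb1 and the summed acinar-cell markers were both higher in N1 and D1 than in N2 and D2. All 16 of these markers had more than 3 counts in some library, and the transcription factor gene Ptf1a had 0 counts in N2. Their summed CPM was 2.38 times as high in replicate 1 as in replicate 2 in both groups, a sum carried by the abundant enzyme genes. In both groups 14 of the 16 were higher in replicate 1. The transcription factor gene Bhlha15 was lower there (22.7 and 33.2, then 25.7 and 33.0 CPM), and Rbpjl was higher without (1.03 and 0.619 CPM) but not with depletion (0.726 and 0.802 CPM). Examples are the protease precursor genes Ctrb1 (3049 and 1144 CPM without, 3037 and 1144 CPM with depletion), Prss2 (1449 and 566, then 1435 and 578) and Try4 (1249 and 534, then 1209 and 538). Prss2 and Try4 belong to the trypsin family, whose near-identical copies make the split of their counts uncertain. The part of acinar RNA in the Gjb1 level was not tested. Over the 11595 genes that averaged 5 CPM or more, the 5 with the pattern nearest to that of Gjb1 over the 4 libraries were Chrna3, Reg3a, Gbp4, Car9 and Gm2663. Likeness was the Euclidean distance between log2 CPM centred on each gene's mean, which was 0.127 for Chrna3, a nicotinic acetylcholine receptor subunit, and 0.232 for Gm2663. Reg3a, a gene of the regenerating protein family, had 66.1 and 31.1 CPM without and 76.3 and 32.8 CPM with depletion.

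Gjd2 dominated the 3 connexins in every library. Its share of their summed CPM per kb was 84.6% in N1, 84.3% in N2, and 83.9% in D1 and in D2. The groups did not overlap, with means of 84.4% ± 0.212 and 83.9% ± 0.00587 (SD, n = 2 each), and the exact two-sided permutation p was 0.333, the smallest that 2 against 2 libraries allow. By longest transcript, which is a noncoding one for Gja1, the share was 68.1% on average and the groups overlapped. Gja1 held 13.7 to 15.1% and Gjb1 0.948 to 2.38% of the sum.

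Among 20 connexin genes, Gjd2, Gja1 and Gja4 were the most abundant per kb. Gja4, which encodes connexin 37 of blood vessels, had 4.93, 5.69, 3.94 and 5.89 CPM in N1, N2, D1 and D2. Gjb1 came 7 in this order. The genes Gje1, Gjb6 and Gja3 had no count in any library, which at 3 counts allows up to 0.0463 CPM in the deepest and 0.156 CPM in the shallowest library. These bounds are too low if both reads of a pair were counted. Of the 13 connexins that passed the filter on low counts, 0 had an adjusted p under 0.05 for depletion (edgeR), against 0.0101% of genes tested. The pannexins, channel proteins related in shape to connexins, were low, with Panx1 at 5.76 to 7.06 and Panx2 at 2.49 to 5.55 CPM. Panx3 had no count.

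The promoters of the most and the least abundant of the 3 connexins differ in their content of CG dinucleotides, the sites of DNA methylation in mammals. They are shown to set the letters beside the levels, from RefSeq's annotation of GRCm38.p6, from 250 bases before to 50 bases after the annotated start, with CG in capitals. The Gjd2 window is chr2:114013570-114013869, minus strand, and the Gjb1 window, the first of 4 listed starts, is chrX:101376126-101376425, plus strand.
Gjd2: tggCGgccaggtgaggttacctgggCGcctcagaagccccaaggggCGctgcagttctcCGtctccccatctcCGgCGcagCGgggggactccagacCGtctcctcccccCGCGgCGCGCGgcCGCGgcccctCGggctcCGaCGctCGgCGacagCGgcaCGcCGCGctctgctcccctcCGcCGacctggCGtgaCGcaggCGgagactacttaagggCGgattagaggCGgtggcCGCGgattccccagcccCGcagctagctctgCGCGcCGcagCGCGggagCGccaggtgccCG
Gjb1: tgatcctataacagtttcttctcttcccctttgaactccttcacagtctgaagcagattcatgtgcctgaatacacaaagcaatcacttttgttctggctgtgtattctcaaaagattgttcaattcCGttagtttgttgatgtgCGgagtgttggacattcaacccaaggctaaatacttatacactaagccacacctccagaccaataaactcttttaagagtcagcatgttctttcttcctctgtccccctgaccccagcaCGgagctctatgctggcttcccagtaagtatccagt
The Gjd2 window has 41 CG dinucleotides and a GC content of 75.0%, and its ratio of observed to expected CG is 0.9751, above 92.7% of 32851 windows of the same length. The Gjb1 window has 3 CG dinucleotides, a GC content of 43.3% and a ratio of 0.225, and the other 3 Gjb1 windows have ratios of 0.101 to 0.569. The Gja1 window, with 8 CG dinucleotides and a ratio of 0.544, lies between those of Gjd2 and the first Gjb1 start. The Gjb1 window with the highest ratio, 0.569, has 15 CG dinucleotides and lies above Gja1. Which Gjb1 start is used in islets was not tested. Windows were matched for 6 of the 9 genes. Tjp1 (0.972), Epha5 (1.00) and Efna5 (1.10) had ratios close to or above that of Gjd2, although Epha5 had the lowest level per kb of all 9 genes. The GC box GGGCGG, searched on both strands, was found in 35.7% of all windows and in those of Gjd2, Tjp1, Epha5, Efna5 and 1 of 4 of Gjb1. The word TATAAA, searched in the same way and found in 13.6% of all windows, was in 1 of the Gjb1 windows and in no other window of these genes. A match is a description of these letters and not of a bound factor.

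Cdh1 encodes E-cadherin, the main adhesion protein of epithelial and endocrine cells. The gene (ENSMUSG00000000303, chromosome 8, 106603351 to 106670246, plus strand) stood at 502 CPM in N1, 507 in N2, 494 in D1 and 508 in D2. This was the narrowest range of the 9 genes, 0.04 on the log2 scale. Its group means were 505 ± 3.33 and 501 ± 9.94 CPM (SD, n = 2 each), with a log2 fold change of -0.02 (SE 0.07, 95% interval -0.20 to 0.17, edgeR).

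Cdh2 encodes N-cadherin, the cadherin of neurons and mesenchymal cells that islet endocrine cells also carry. The gene (ENSMUSG00000024304, chromosome 18, 16588877 to 16809246, minus strand) stood at 143 CPM in N1, 187 in N2, 154 in D1 and 189 in D2. Both libraries numbered 2 were above both numbered 1, by 1.31 times without and 1.23 times with depletion, and the groups overlapped. Its log2 fold change with depletion was 0.05 (SE 0.15, 95% interval -0.33 to 0.43, edgeR).

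Cdh1 exceeded Cdh2 in all 4 libraries. Per kb the ratio of Cdh1 to Cdh2 was 6.19 in N1, 4.79 in N2, 5.66 in D1 and 4.74 in D2. The group means were 5.49 ± 0.996 and 5.20 ± 0.650 (SD, n = 2 each), which differed by less than the spread (exact two-sided permutation p = 0.667). With 2 against 2 libraries this p cannot fall below 0.333. The ratio was lower in libraries numbered 2, where Cdh2 was higher and Cdh1 was nearly the same. By longest transcript the mean ratio over the 4 libraries was 3.31, as Cdh2 has merged exons of 8066 and a longest transcript of 4843 bases.

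The 2 cadherins together outweighed the 3 connexins. The summed level per kb of Cdh1 and Cdh2 was 1.94 times that of Gjd2, Gja1 and Gjb1 in N1, 2.42 times in N2, 1.99 times in D1 and 2.43 times in D2. The group means were 2.18 ± 0.340 and 2.21 ± 0.313 (SD, n = 2 each), a difference smaller than the spread. The exact two-sided permutation test gave p = 0.667, where 0.333 is the smallest possible. The connexin sum was 65.6, 55.3, 63.8 and 55.3 CPM per kb in that order of libraries and the cadherin sum 128, 134, 127 and 134, so the ratio was higher in N2 and D2 than in N1 and D1, and the groups overlapped.

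Among 18 classical cadherins, Cdh1, Cdh5 and Cdh2 had the highest levels per kb. Cdh5 encodes the cadherin of blood vessel endothelium and had 140.4, 171, 144 and 165 CPM in N1, N2, D1 and D2. After these came Cdh8 with 33.0 to 41.6 CPM and Cdh6 with 23.1 to 30.1 CPM. The catenins that tie cadherins to actin were abundant: Ctnnb1 (beta-catenin) had 891 to 907 CPM, Ctnna1 (alpha-catenin) 296 to 310 CPM, and the junction scaffold gene Afdn 229 to 237 CPM. Of 14 cadherins and 11 catenins and partners that passed the filter, 0 had an adjusted p under 0.05 (edgeR), against 0.0101% of genes tested. The median log2 fold changes were -0.03 and -0.0039, beside -0.0025 over the 19721 genes outside Ins1 and Ins2.

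Ncam1 encodes the neural cell adhesion molecule, which islet endocrine cells share with neurons and Schwann cells. The gene (ENSMUSG00000039542, chromosome 9, 49502136 to 49798925, minus strand) stood at 117 CPM in N1, 168 in N2, 113 in D1 and 168 in D2. Replicate 2 exceeded replicate 1 by 1.44 times in the non-depleted and by 1.49 times in the insulin-depleted group, while the group means were 142 ± 36.4 and 141 ± 39.2 CPM (SD, n = 2 each). The log2 fold change with depletion was -0.02 (SE 0.23, 95% interval -0.60 to 0.57, edgeR). Of its exonic bases, 4.81% overlap the antisense gene Gm11149.

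No marker list rose as far in its summed level as Ncam1 from libraries numbered 1 to libraries numbered 2, though single markers differed within lists. The largest such ratios were those of 8 immune-cell markers, 1.17 without and 1.22 with depletion, at summed levels of 73.4 and 85.7, then 70.3 and 85.7 CPM. Of these 8, the T-cell gene Cd3e had no count in any library, and 7 had more than 3 counts in some library. In both groups 3 of the 8 were higher in replicate 2 and 2 were higher in replicate 1. Among the 3, Cd74 had 18.2 and 27.8, then 19.2 and 27.9 CPM. The 10 endothelial markers gave 1.09 and 1.08. The 6 Schwann-cell markers, all with more than 3 counts in some library, gave 1.05 and 0.956 at sums of 33.3 to 36.6 CPM. Among them Ngfr, which encodes a neurotrophin receptor, had 10.6 to 13.9 CPM and Sox10, a transcription factor gene of Schwann cells, 5.57 to 6.33 CPM. The 5 delta- and gamma-cell markers gave 0.797 and 0.806, with 2 of the 5 higher in replicate 1 and 2 higher in replicate 2 in both groups: Ppy (pancreatic polypeptide) had 2721 and 1905, then 2619 and 1862 CPM, while Sst (somatostatin) had 527 and 665, then 532 and 658 CPM. The 9 beta-cell markers gave 0.945 and 0.967, a sum carried by Iapp. In both groups 7 of these 9 were higher in replicate 2 and 2 were higher in replicate 1. Among the 7, Glp1r had 380 and 565, then 390 and 558 CPM, and Slc30a8 109 and 112, then 111 and 113 CPM. The part of any of these cells in the Ncam1 difference was not tested.

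Among 15 adhesion genes of the immunoglobulin type, Bsg, Epcam and Alcam had the highest levels per kb, and Ncam1 came 6. Epcam, an epithelial adhesion gene, had 301 and 273, then 302 and 269 CPM. Alcam had 236 and 189, then 240.4 and 186 CPM, so that it was lower in libraries numbered 2, where Ncam1 was higher. Bsg, which encodes the transporter partner basigin, had 379 and 463, then 382 and 476 CPM. The enzymes that add polysialic acid to NCAM were unequal: St8sia4 had 29.4 to 34.8 CPM and St8sia2 0.963 to 1.25 CPM. Of the 15 genes and of both enzymes, 0 had an adjusted p under 0.05 for depletion (edgeR), against 0.0101% of genes tested.

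Efna5 encodes ephrin-A5, a ligand held in the membrane by a lipid anchor, and Epha5 encodes a receptor of A-type ephrins. Signals between this pair in touching beta cells are known to affect insulin secretion. Efna5 (ENSMUSG00000048915, chromosome 17, 62604184 to 62881317, minus strand) stood at 67.5 CPM in N1, 65.1 in N2, 66.9 in D1 and 64.9 in D2. All 4 values lay within 0.06 on the log2 scale. Its log2 fold change with depletion was -0.01 (95% interval -0.22 to 0.19, edgeR).

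Epha5 (ENSMUSG00000029245, chromosome 5, 84054761 to 84417382, minus strand) rested on 142 counts in N1, 74 in N2, 36 in D1 and 102 in D2. These are 2.93 (exact Poisson 95% interval 2.47 to 3.45), 1.27 (1.00 to 1.60), 1.87 (1.31 to 2.59) and 1.57 (1.28 to 1.91) CPM. As for Gjb1, the intervals cover counting error only and are too narrow if both reads of a pair were counted. The non-depleted libraries held both the highest and the lowest value, with the insulin-depleted libraries between them. Replicate 1 exceeded replicate 2 by 2.30 times without depletion and by 1.19 times with it. The log2 fold change was -0.31 with a 95% interval of -1.45 to 0.84 (edgeR, adjusted p = 1.00).

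Other ephrins and receptors outranked Epha5. Efna1 was the A-type ephrin with the highest level per kb, at 32.7 to 40.3 CPM, followed by Efna5 and Efna2 (3.53 to 7.54 CPM). Of the 9 EphA receptors, Epha2 led with 16.8 to 19.6 CPM, before Epha7 (5.60 to 9.995 CPM) and Epha1 (2.99 to 3.27 CPM), and Epha5 came 7 per kb of merged exons, which are long in this gene, and 4 by CPM. Among B-type ephrins Efnb1 (22.1 to 32.6 CPM), Efnb2 (42.2 to 43.1 CPM) and Efnb3 (11.5 to 13.1 CPM) were present. Per kb the EphB receptors were led by Ephb4 (19.0 to 22.96 CPM), Ephb2 (20.9 to 24.1 CPM) and Ephb6 (1.25 to 2.59 CPM). The filter was passed by 5 A-type and 3 B-type ephrins and by 7 EphA and 5 EphB receptors. Of these, 0 had an adjusted p under 0.05 for depletion (edgeR), against 0.0101% of genes tested. With an unadjusted p under 0.05 there were also 0, against 0.416%. Both shares are so low that 0 in so few genes is no result about these families. The EphA fold changes ranged from -1.08 to 0.09 on the log2 scale.

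Tjp1 encodes ZO-1, the scaffold of tight junctions. The gene (ENSMUSG00000030516, chromosome 7, 65296165 to 65527781, minus strand) stood at 311 CPM in N1, 325 in N2, 309 in D1 and 325 in D2. D1 was 0.992 times N1 and D2 was 0.998 times N2. The log2 fold change was -0.01 (SE 0.07, 95% interval -0.20 to 0.18, edgeR). Of 18 tight junction genes, Cldn4, Cldn7 and F11r had the highest levels per kb, and Tjp1 came 4. The claudin gene Cldn4 had 336 to 362 CPM, Cldn7 102 to 129 CPM and F11r, which encodes an adhesion protein of tight junctions, 107 to 138 CPM. Of the 17 that passed the filter, 0 had an adjusted p under 0.05 for depletion (edgeR), against 0.0101% of genes tested. Their median log2 fold change was 0.0097.

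**Figure D2:**
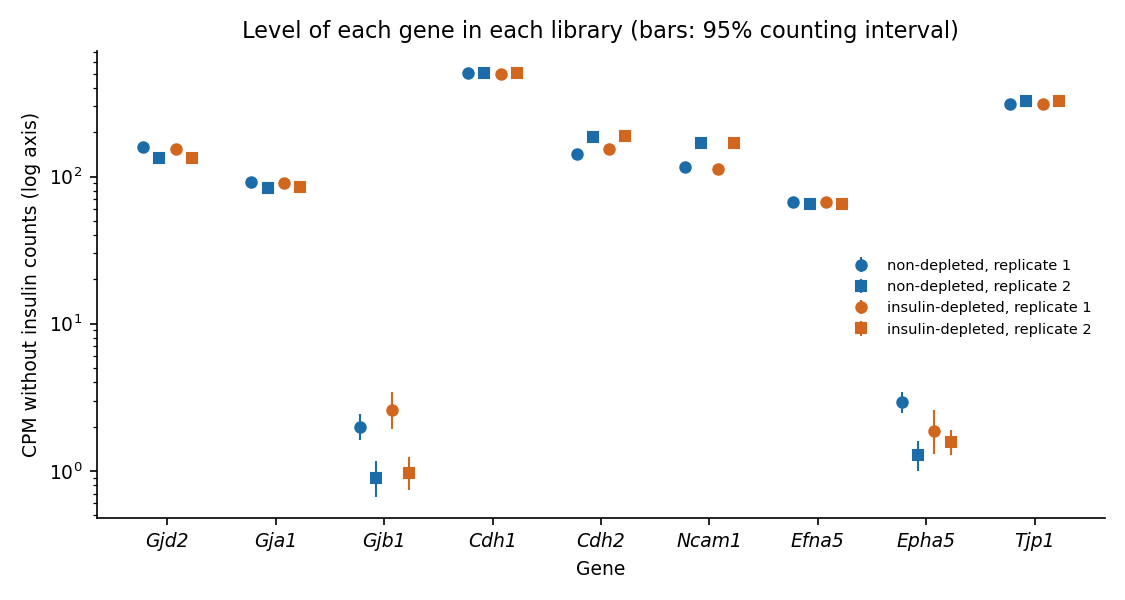
CPM without insulin counts (log axis) of each gene in each library, with exact Poisson 95% intervals as bars (blue non-depleted, orange insulin-depleted, circles replicate 1, squares replicate 2). The bars are too narrow if both reads of a pair were counted. Points of equal shape lie close together in most genes, Ncam1 and Cdh2 are higher in both squares, and Gjb1 is higher in both circles (2.00 and 2.59 against 0.895 and 0.971 CPM).

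Insulin depletion changed none of the 9 genes detectably. All 9 passed the filter on low counts, and 0 had an adjusted p under 0.05 (edgeR), against 0.0101% of the 19723 genes tested, which are Ins1 and Ins2 alone. At an unadjusted p under 0.05 there were also 0 of the 9 genes, against 0.416% of genes tested, and DESeq2 and limma-voom called 0 of the 9 as well. With the replicate number as a term in edgeR, 0 of the 9 genes were called against 0.0456% of all genes, and 0 had an unadjusted p under 0.05 against 4.32%. The connexins, pannexins, cadherins, catenins, immunoglobulin-type adhesion genes, polysialyltransferases and tight junction genes described above likewise held 0 genes called and 0 with an unadjusted p under 0.05 (edgeR). The fold changes of the 9 genes were above 0 in 2 genes and below 0 in 7, with a median of -0.01 on the log2 scale beside -0.0025 over the 19721 genes outside Ins1 and Ins2. The groups overlapped in all 9 genes, while 10.2% of those 19721 genes were higher and 9.33% lower in both insulin-depleted libraries than in both non-depleted ones. A p that misses the threshold does not show equal levels, and the intervals give the range of change that the fit on group alone allows. They stayed within -0.36 to 0.29 for Gjd2, Gja1, Cdh1, Efna5 and Tjp1. They were wider for Cdh2 and Ncam1, and widest for Gjb1 (-1.32 to 1.79) and Epha5 (-1.45 to 0.84), which had at most 142 counts in a library. With the replicate number as a term the intervals of all 9 genes were narrower, at -0.09 to 0.03 for Gjd2 and -0.08 to 0.04 for Ncam1. The labels do not say that libraries of equal number are paired.

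**Figure D3:**
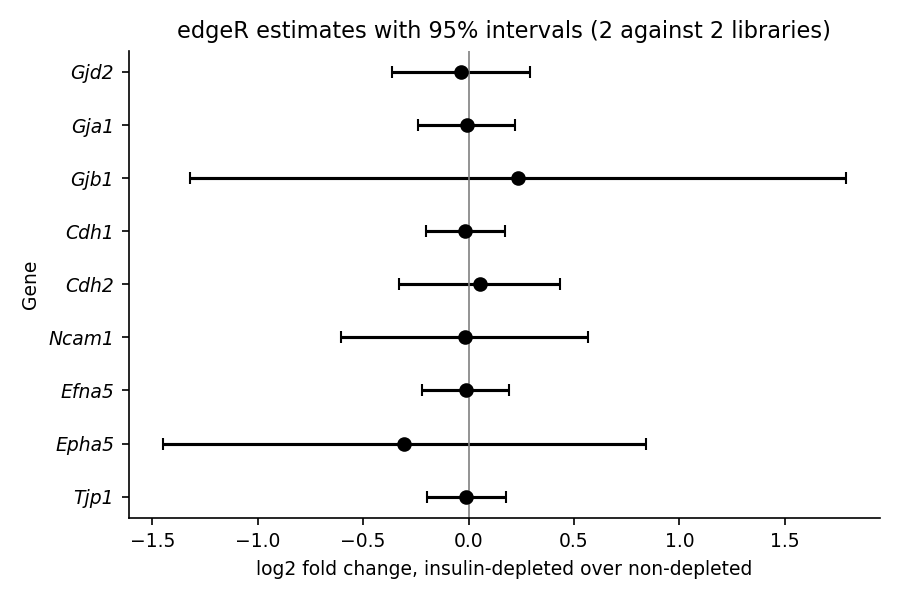
Log2 fold change of insulin-depleted over non-depleted libraries for each gene, as points with 95% intervals from edgeR on 2 against 2 libraries. All 9 intervals include 0, and those of Gjb1 and Epha5 are the widest.

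In 8 of the 9 genes, all except Epha5, the 2 libraries of each group differed by more than the group means did. The share of all genes for which this holds was not computed, so the count does not set these 9 genes apart. Taking a difference of more than 1.25 times in the same direction in both groups, 1 of the 9 genes, Ncam1, was higher in libraries numbered 2, against 11% of the 19721 genes outside Ins1 and Ins2, which include the 9. Likewise 1 gene, Gjb1, was higher in libraries numbered 1, against 7.87%. Over the 11595 of those genes that averaged 5 CPM or more, the shares were 6.79% and 4.1%. These comparisons set single libraries against each other and carry no test.

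**Figure D4:**
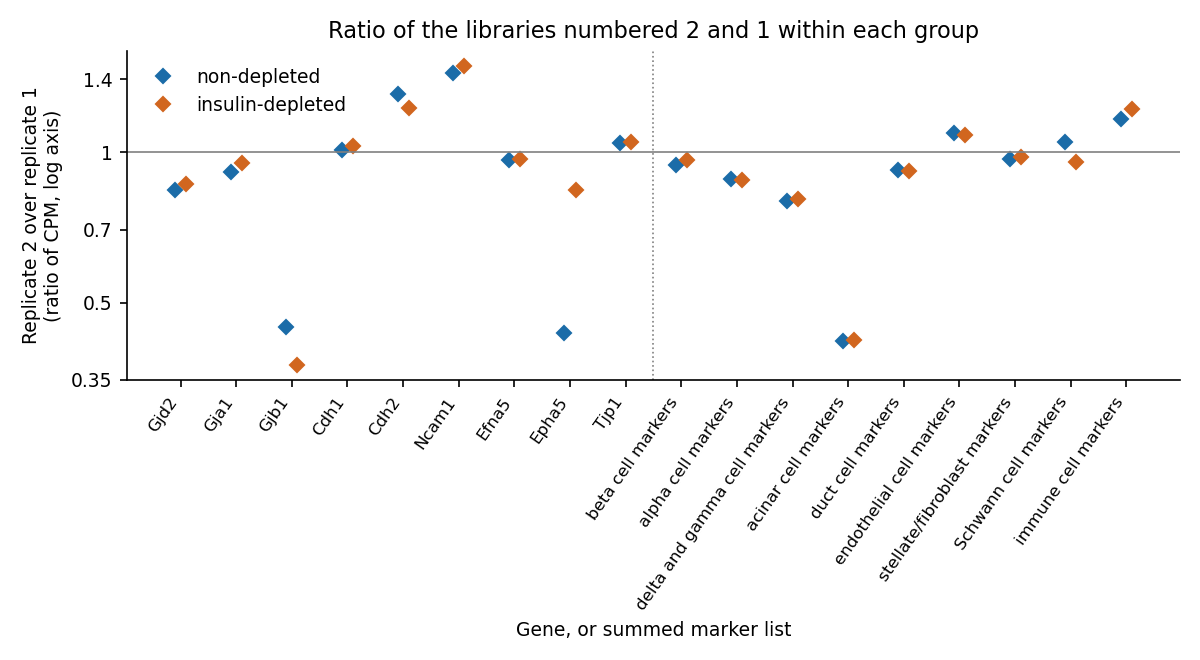
Ratio of CPM in replicate 2 over replicate 1 (log axis) within the non-depleted (blue) and insulin-depleted (orange) group, for each of the 9 genes and for the summed level of each marker list (right of the dotted line). Gjb1 lies at 0.447 and 0.375, near the acinar markers at 0.419 and 0.421, and Ncam1 at 1.44 and 1.49 lies above all marker lists.

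The sequences of the 9 genes were also compared with those of insulin. Such depletion panels generally use guides that match 20 bases beside an NGG motif, and neither the cutting nor the guides of this panel are given in the labels. Every 20-base stretch before NGG on either strand of the annotated Ins1 and Ins2 transcripts was taken, 377 in all, and the closest site before NGG was sought in the longest transcript of each gene. The closest site differed from an insulin stretch at 4 bases in Tjp1, at 5 in Gjd2, Gjb1, Cdh2, Ncam1, Efna5 and Epha5, and at 6 in Gja1 and Cdh1. For Gja1 the longest transcript is a noncoding one. Of 14792 genes outside Ins1 and Ins2 that averaged 1 CPM or more, these 9 included, 17.0% had a site with 4 or fewer differences, 68.3% with 5 or fewer and 97.6% with 6 or fewer. The sites of Tjp1, the closest, and of the leading connexin and cadherin, Gjd2 and Cdh1, are each given after the insulin stretch, with the differing bases in capitals and the last 3 bases of each site being its NGG.
Ins2 stretch for Tjp1: gaagtgGaGgacccaCAagc
Tjp1: gaagtgCaTgacccaAGagctgg
Ins2 stretch for Gjd2: aggTTGTgtcaGagcaggcc
Gjd2: aggCGCGgtcaTagcaggcctgg
Ins2 stretch for Cdh1: agtCccTgaGgTcttAgCtg
Cdh1: agtGccCgaAgActtTgGtgtgg
All 3 sites lie in coding sequence: that of Tjp1 at chr7:65340314-65340336 (minus strand, exon 5 of 28), that of Gjd2 at chr2:114011784-114011806 (plus strand, opposite to the transcript, exon 2 of 2) and that of Cdh1 at chr8:106660957-106660979 (plus strand, exon 10 of 16), in GRCm38. The 95% interval of the log2 fold change was -0.20 to 0.18 for Tjp1, with 4 differences, and -0.20 to 0.17 for Cdh1, with 6. Whether any of these sites is cut was not tested.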

How the data were processed

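The authors deposited 1 table of counts per gene for the 4 libraries, as whole numbers without normalization. The 2 columns without depletion, filed under expected counts because their header holds the word size, are whole numbers as deposited by the authors, so no rounding was needed. The submitters' processing notes name cutadapt 4.8, STAR 2.7.11b, GRCm38 and mm10 without roles; the counter and its handling of strand and multi-mapping reads were not given in the sources used here. All 55536 identifiers matched GENCODE M21 (GRCm38). Of the 31-base stretches of these genes, 0 to 1.25% occur in another gene.

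Counts were tested with edgeR 4.0.16 (R 4.3.3): filterByExpr, TMM, robust glmQLFit on group alone, glmQLFTest, Benjamini-Hochberg over 19723 genes, threshold 0.05. DESeq2 1.42.0 and limma 3.58.1 (voom) were alternatives. The edgeR step was tested on simulated data. Single values were compared by exact two-sided permutation (scipy 1.17.1). In each gene list the 3 genes with the highest level per kb were named (some are not reported here), plus 5 genes nearest in pattern to the most variable gene; further list genes and the 1.25-fold limit were chosen after values were seen. The genes and lists were chosen with earlier results of these data known.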

Additional observations from a re-analysis of the deposited data

How the results depend on the processing

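No setting called any of the 9 genes (the lowest adjusted p over the alternatives was 0.999). Over all genes, 2 were called by every setting other than the replicate block, which called 9, with 2 higher and 7 lower, and 0 of these 9 genes; libraries of equal number deviated together (r = 0.845 across 11552 genes, which are not independent), but the labels share only a number. With the block the 95% intervals of all 9 genes were narrower, at -0.37 to 0.86 for Gjb1, -0.68 to 0.40 for Epha5 and -0.08 to 0.04 for Ncam1. Of 54 fold changes of the 9 genes under other tools, scaling, filter, block or halved counts, 52 kept their sign and 2 turned, Gjb1 to -0.035 and Ncam1 to 0.011 with limma-voom. The cause was not tested. Of 36 fold changes with a library left out, 21 kept their sign and 15 turned. Leaving out each library in turn gave -0.17 to 0.11 for Gjd2, -0.084 to 0.073 for Gja1, -0.59 to 0.95 for Gjb1, -0.12 to 0.25 for Cdh2, -0.33 to 0.26 for Ncam1, -0.049 to 0.027 for Efna5, -0.79 to 0.43 for Epha5, -0.037 to 0.014 for Tjp1 and -0.03 to -0.01 for Cdh1. The mean cadherin to connexin ratio of 2.20 was 2.88 with raw counts. The Cdh1 to Cdh2 ratio of 5.35 was 3.31 by longest transcript and 3.03 with raw counts, and the Gjd2 share of 84.2% was 68.1% and 61.9%; each change comes from the length alone. Counts of 36 to 142 limit Gjb1 and Epha5.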
